A study of Mus musculus with 6 samples.

Results

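The enzymes described here clear superoxide and peroxides: the superoxide dismutases Sod1, Sod2 and Sod3, catalase (Cat), and the glutathione peroxidases Gpx1, Gpx3, Gpx4, Gpx7 and Gpx8. They were taken by gene symbol from the deposited expression table, which gave 9 genes of the 54532 listed. The cells were MC3T3-E1, pre-osteoblasts of mouse origin kept as a line, and all 6 samples were cultured in osteogenic medium, which holds beta-glycerophosphate, ascorbic acid and dexamethasone. The control group (3 samples) had that medium alone, and the metformin group (3 samples) also received 0.2 mM metformin, a biguanide that lowers blood glucose. The study's methods and results, not the labels, give the dose, the 3 days of induction and the term biological replicates. A single cell line in culture limits what the groups can stand for.

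Superoxide leaks from the respiratory chain and is made by oxidases. Superoxide dismutases turn it into hydrogen peroxide: Sod1 with copper and zinc in the cytosol, Sod2 with manganese in mitochondria, Sod3 with copper and zinc outside the cell. Catalase, a heme enzyme of peroxisomes, breaks hydrogen peroxide into water and oxygen. Glutathione peroxidases reduce peroxides at an active-site selenocysteine or cysteine. Gpx1 works in the cytosol and mitochondria, Gpx3 is secreted, Gpx4 reduces lipid hydroperoxides in membranes and restrains ferroptosis, and Gpx7 and Gpx8 lie in the endoplasmic reticulum, where disulfide formation yields hydrogen peroxide. In bone cells, peroxide is known to hold back osteoblast differentiation.

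The glutathione peroxidases differ in the codon of the active-site residue, printed here because it decides whether a transcript needs the selenocysteine machinery described later. Each line gives coding sequence of the GENCODE M21 transcript (GRCm38), 5′ to 3′, with the active-site codon in capitals. Positions are counted from the first methionine. In Gpx1, Gpx3 and Gpx4 the codon is an in-frame TGA that the annotation marks as selenocysteine. In Gpx7 and Gpx8 it is a cysteine codon, found by the residues that precede it in the other members.
Gpx1 (selenocysteine 47, chr9:108339451-108339453, plus strand): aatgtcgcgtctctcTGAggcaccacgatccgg
Gpx3 (selenocysteine 73, chr11:54907256-54907258, plus strand): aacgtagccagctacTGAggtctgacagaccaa
Gpx4 (selenocysteine 129 in its longest coding form, chr10:80054737-80054739, plus strand): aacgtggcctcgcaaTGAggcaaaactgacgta
Gpx7 (cysteine 56, chr4:108403430-108403432, minus strand): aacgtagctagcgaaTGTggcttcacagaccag
Gpx8 (cysteine 79, chr13:113045661-113045663, minus strand): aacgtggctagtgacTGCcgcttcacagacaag

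The table holds FPKM, reads divided by gene length and by an effective library size, and reads could be recovered from them, 18399861 to 22111790 per sample. The test of metformin against control was limma-trend, run on log2(FPKM + 1) and fitted to all 12681 genes that averaged 0.5 FPKM or more, with Benjamini-Hochberg adjustment over all of them. A gene is said to be called, or to have risen or fallen, where the adjusted p was under 0.05. Log2 fold changes are metformin minus control on this scale, which understates the change of low genes. Control replicate 1 stood apart from the other samples, with correlations across genes of 0.96 and 0.952 to the other controls, where these had 0.988 with each other. Across genes its deviation had a Spearman correlation of -0.668 with transcript GC content, given as a description. Results are therefore also given without it. The osteoblast label was checked against 9 markers, all of which had a mean of at least 0.5 FPKM. Their summed FPKM ran from 11403 to 13402 in control and from 8130 to 8622 with metformin, with Col1a1 and Col1a2 called higher and Ibsp and Spp1 called lower. Of other cell types, the myoblast genes Myod1, Myog and Myf5 and the osteoclast gene Acp5 were at 0 in all samples, and 1 of 5 adipocyte markers (Fabp4) reached 0.5 FPKM. The fourth myoblast marker, Des, reached it, with 1.55 ± 0.34 FPKM in control and 2.27 ± 0.18 with metformin (SD, n = 3 each), all metformin samples above the controls but not called. The chondrocyte markers Sox9 and Col2a1 reached it too. Of 6 macrophage or osteoclast markers 2 reached it, Ctsk and Cd68, both called lower, and the summed FPKM of the 6 was 245 to 273 in control and 150 to 163 with metformin. The part of these markers in the results below was not tested. In bulk RNA, a shift in the cells present and a change of RNA per cell cannot be told apart.

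With metformin, catalase rose and Gpx3 fell, and the other 7 enzymes were not called in either direction. Catalase averaged 27.2 ± 2.08 FPKM in control and 36.3 ± 1.54 FPKM with metformin (SD, n = 3 each), a ratio of means of 1.33. Gpx3 went from 1.07 ± 0.17 to 0.285 ± 0.12 FPKM (SD, n = 3 each), a ratio of means of 0.265. Thus 1 of 9 was called higher and 1 of 9 lower, beside 13.2% and 9.28% of all tested genes. The metformin samples lay wholly above the controls for Cat and Gpx4 and wholly below them for Gpx3, where this held for 23.6% of all tested genes above and 20.5% below. With 9 genes, these counts are close to the background. The median log2 fold change of the 9 was 0.10, beside 0.0053 for all tested genes. All 9 passed the limit of 0.5 FPKM, but Gpx3 passed it only through the control samples, so its inclusion leaned on the group in which it was high.

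**Figure D1:**
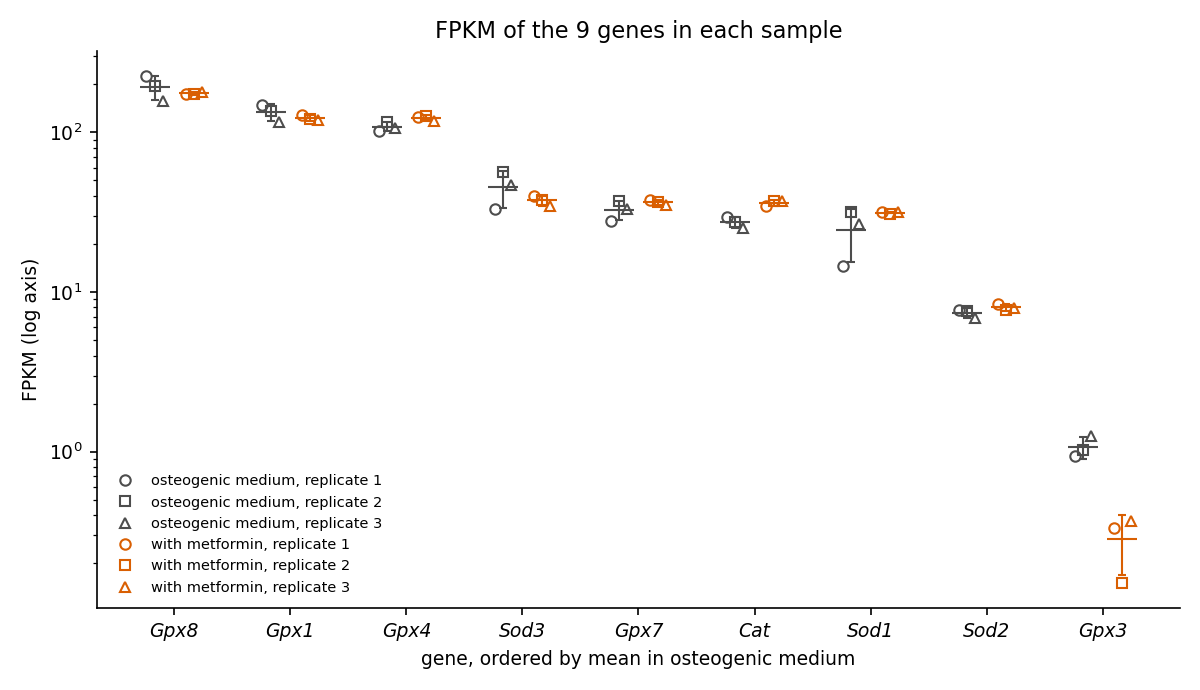
FPKM on a log axis for each of the 9 genes in each of the 6 samples (marker shape gives the replicate number, grey is osteogenic medium alone, orange is with metformin), with the group mean and SD (n = 3). Cat lies above and Gpx3 below its controls in all 3 metformin samples, and the low circles of Sod1 and Sod3 are control replicate 1.

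Of the superoxide dismutases, none was called with all 6 samples. Voom on the recovered reads also called none, and none had an unadjusted p under 0.05. Sod1 (chromosome 16, 90220754 to 90226329, plus strand), the cytosolic enzyme, had 14.5, 31.8 and 26.7 FPKM in control replicates 1 to 3 and 31.7, 31.0 and 31.5 FPKM in metformin replicates 1 to 3. Control replicate 1 was the lowest sample, and control replicate 2 was above all the metformin samples. The log2 fold change was 0.42 (standard error 0.26, 95% interval -0.20 to 1.05, adjusted p = 0.298). Without control replicate 1 it was 0.10 (95% interval -0.088 to 0.30, adjusted p = 0.329).

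Sod2 (chromosome 17, 13006846 to 13040063, plus strand), the mitochondrial enzyme, varied least of the 3 in the controls. Its levels were 7.74, 7.65 and 6.84 FPKM in control and 8.43, 7.67 and 7.95 FPKM with metformin. The groups overlapped, with a log2 fold change of 0.10 (standard error 0.084, 95% interval -0.099 to 0.30, adjusted p = 0.434).

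Sod3 (chromosome 5, 52363791 to 52371418, plus strand), the extracellular enzyme, had 33.02, 56.5 and 46.8 FPKM in control and 39.7, 37.9 and 34.6 FPKM with metformin. All metformin samples lay between control replicate 1 and the other controls. With 6 samples the log2 fold change was -0.24 (standard error 0.19, 95% interval -0.70 to 0.21, adjusted p = 0.409). Without control replicate 1 it was -0.45 (standard error 0.098, adjusted p = 0.0115), a call of lower. In that fit 20.4% of all tested genes were called lower and 23.4% higher, and of the 9 enzymes Sod3 and Gpx3 were called lower and Cat higher. The call of Sod3 thus turned on whether that 1 library was used.

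Catalase (chromosome 2, 103453849 to 103485160, minus strand) had 29.3, 27.3 and 25.1 FPKM in control and 34.5, 37.2 and 37.1 FPKM with metformin, from 1289 to 2120 recovered reads a sample. Every metformin sample was above every control. The log2 fold change was 0.40 (standard error 0.091, 95% interval 0.19 to 0.62, adjusted p = 0.0217). It was 0.45 without control replicate 1 (adjusted p = 0.00233) and 0.35 without control replicate 3 (adjusted p = 0.0426). The call was lost without control replicate 2 (adjusted p = 0.0615) and without metformin replicate 1, 2 or 3 (adjusted p = 0.0746, 0.106 and 0.102), while the log2 fold change stayed between 0.38 and 0.44 in these fits.

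Of the selenocysteine enzymes, Gpx3 fell and Gpx1 and Gpx4 were not called. Gpx3 (chromosome 11, 54902453 to 54910377, plus strand), the secreted form, was the lowest of the 9, with 31, 39 and 45 recovered reads in control and 12, 6 and 13 reads with metformin. These are 0.936, 1.03 and 1.26 FPKM and 0.334, 0.152 and 0.368 FPKM, with no overlap. Its log2 fold change was -0.69 (standard error 0.12, 95% interval -0.98 to -0.41, adjusted p = 0.00822). The call held whichever of the 6 samples was left out, with adjusted p from 0.00505 to 0.0379. These fits kept the genes that passed the FPKM limit with all 6 samples. Gpx3 passed that limit only through the controls, so leaving out samples does not check its inclusion. With no filter on low values it was still called lower (adjusted p = 0.0145). Where a minimum of reads was required in every sample, it was not tested. At such low levels the pseudocount shrinks the log2 fold change. It was -1.65 with a pseudocount of 0.1 and -1.97 by voom on the recovered reads.

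Gpx1 (chromosome 9, 108338903 to 108340343, plus strand) had 148, 137 and 116 FPKM in control and 128, 122 and 119 FPKM with metformin. The metformin samples lay inside the control range. The log2 fold change was -0.11 (95% interval -0.38 to 0.16, adjusted p = 0.519).

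Gpx4 (chromosome 10, 80047166 to 80056439, plus strand) had 102, 116 and 107 FPKM in control and 125, 127 and 118 FPKM with metformin. The groups did not overlap, but the gap between them, from 116 to 118 FPKM, was small beside the spread. Its log2 fold change was 0.18 (standard error 0.090, 95% interval -0.029 to 0.40, adjusted p = 0.193). A transcript of Gpx4-ps2 is 99.7% identical to Gpx4 over 733 bases and was given 606 to 770 reads a sample beside 3222 to 4765 of Gpx4, so reads could be split between them.

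Neither cysteine enzyme was called. Gpx7 (chromosome 4, 108400390 to 108406961, minus strand) had 28.0, 37.2 and 32.96 FPKM in control and 37.4, 36.8 and 35.1 FPKM with metformin. Control replicate 1 was its lowest sample, and the log2 fold change went from 0.16 (95% interval -0.12 to 0.44, adjusted p = 0.376) to 0.055 (95% interval -0.11 to 0.22, adjusted p = 0.545) without it. Gpx8 (chromosome 13, 113042753 to 113046410, minus strand) had 224, 193 and 157 FPKM in control and 174, 173 and 179 FPKM with metformin. Control replicate 1 was here the highest sample. The log2 fold change of -0.11 (95% interval -0.44 to 0.22, adjusted p = 0.602) became 0.0047 (95% interval -0.22 to 0.23, adjusted p = 0.972) without that sample. Gpx8 lies whole within Cdc20b on the opposite strand, which had at most 2 reads a sample.

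**Figure D2:**
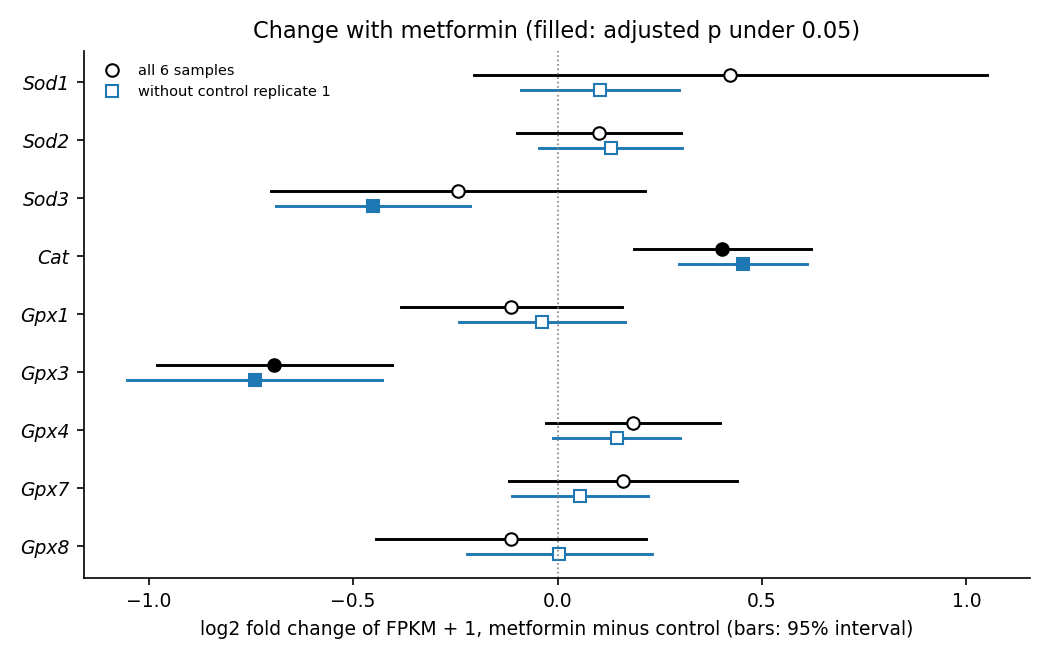
Log2 fold change (metformin minus control) of FPKM + 1 for the 9 genes with its 95% interval, from all 6 samples (black circles) and without control replicate 1 (blue squares), filled where the adjusted p was under 0.05. Cat and Gpx3 are filled in both fits, Sod3 only without control replicate 1, and Sod1 moves from 0.42 to 0.10.

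The controls varied more than the metformin samples, which was not particular to these genes. Over all tested genes, correlations were 0.952 to 0.988 between controls and 0.992 between metformin samples. The SD of FPKM was larger in control for all 9 genes, and the coefficient of variation for 8 of them. The exception in the latter was Gpx3, with 15.7% in control and 40.8% with metformin. Sod1 had the widest contrast, 36.5% in control and 1.15% with metformin. On the log2 scale, control replicate 1 was below the mean of the other controls by 0.96 for Sod1, 0.62 for Sod3 and 0.31 for Gpx7, and above it by 0.36 for Gpx8 and 0.23 for Gpx1. Its difference from that mean was 0.15 for Cat, 0.085 for Sod2, -0.12 for Gpx4 and -0.14 for Gpx3. The GC content of the longest transcript was 47.6% for Sod1, 52.7% for Sod3, 55.5% for Gpx7, 44.3% for Gpx8, 57.2% for Gpx1, 48.7% for Cat, 42.2% for Sod2, 60.2% for Gpx4 and 56.0% for Gpx3. The part of GC content in these deviations was not tested.

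By FPKM, the levels of the enzymes in osteogenic medium ran from 191 ± 33.2 (SD, n = 3) for Gpx8 through Gpx1 (133 ± 16.2), Gpx4 (108 ± 6.79), Sod3 (45.5 ± 11.8), Gpx7 (32.7 ± 4.59), Cat (27.2 ± 2.08), Sod1 (24.3 ± 8.87) and Sod2 (7.41 ± 0.49) to Gpx3 (1.07 ± 0.17). Sod3, Gpx7 and Cat each overlapped the next in this order, and the other neighbours did not overlap. With metformin, Gpx4 (123 ± 4.53) and Gpx1 (123 ± 4.65) overlapped, as did Sod3 (37.4 ± 2.63), Gpx7 (36.4 ± 1.204) and Cat (36.3 ± 1.54), and Cat was above Sod1 (31.4 ± 0.36) in all 3 samples. The summed FPKM of catalase and the glutathione peroxidases was 494 ± 48.4 in control and 494 ± 5.47 with metformin. That of the superoxide dismutases was 77.2 ± 20.5 and 76.8 ± 2.94. It was 55.3, 96.0 and 80.3 in control replicates 1 to 3 and 74.0 to 79.9 with metformin. Control replicate 1 was below all metformin samples and the other controls were above them, so the like means rest on that library. Both sums use the listed gene length, and the like means of the superoxide dismutases rest on it too. Divided by the principal transcript length described below, Sod1 alone averaged 151 ± 55.0 FPKM in control and 194 ± 2.23 with metformin.

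Within these sums the shares of some enzymes did not overlap between the groups. Sod3 held 59.7%, 58.9% and 58.3% of superoxide dismutase FPKM in the control samples and 49.8%, 49.5% and 46.7% in the metformin samples. Sod1 held 26.3%, 33.1% and 33.2% in control and 39.7%, 40.5% and 42.6% with metformin. Neither share overlapped between the groups, though neither gene was called with all 6 samples. As a background, the FPKM of 23.6% of all tested genes lay wholly above the controls and that of 20.5% wholly below. Sod2 held 7.97% to 13.995% in control and 10.02% to 10.7% with metformin. Catalase held 5.35% to 5.71% of its sum in control and 6.92% to 7.60% with metformin. Gpx1 held 26.4% to 27.8% and 24.3% to 25.6%, and Gpx3 0.176% to 0.287% and 0.0307% to 0.0755%, also without overlap. Gpx8 held 35.8% to 42.0% and 34.8% to 36.6%, and the shares of Gpx4 and Gpx7 overlapped as well. Shares of 1 sum are not independent of each other, and no test was run on them.

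The order of levels depended on the length by which reads were divided. The length listed for Sod1 is 3970 bases, 6.19 times the 641 bases of its principal transcript (APPRIS, GENCODE M21), whereas Sod3 and Cat have the same length by both. For Sod2 the lengths were 10008 and 5861 bases, and for Gpx4 1724 and 959. Divided by the principal transcript, Sod1 had 151 ± 55.0 FPKM in control and 194 ± 2.23 with metformin, above Sod3 in every sample. It then held 66.1% to 73.9% of superoxide dismutase FPKM in control and 78.4% to 80.2% with metformin, and Sod3 held 20.9% to 24.2% and 14.2% to 15.9%. Sod1 was therefore either the lesser or the greater of the pair, while the direction of both shares between groups was the same by either length. The top of the order changed too. By principal transcript, Gpx4 had 195 ± 12.2 FPKM in control and 221 ± 8.14 with metformin. Gpx8 had 193 ± 33.4 and 176 ± 3.16, and Gpx1 had 179 ± 21.7 and 165 ± 6.25. With metformin, Gpx4 and Sod1 were then above Gpx8 and Gpx1 in every sample. The fold change of a gene between groups does not depend on this choice except through the pseudocount. A transcript of Gm8566 is 98.0% identical to Sod1 over 298 bases and had 17 to 73 reads a sample. Sod1 overlaps Scaf4 on the opposite strand by 650 bases. Scaf4 had 684 to 1189 reads a sample beside 1053 to 2680 of Sod1. The strand setting is not known, and the part of this overlap in the Sod1 values was not tested.

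**Figure D3:**
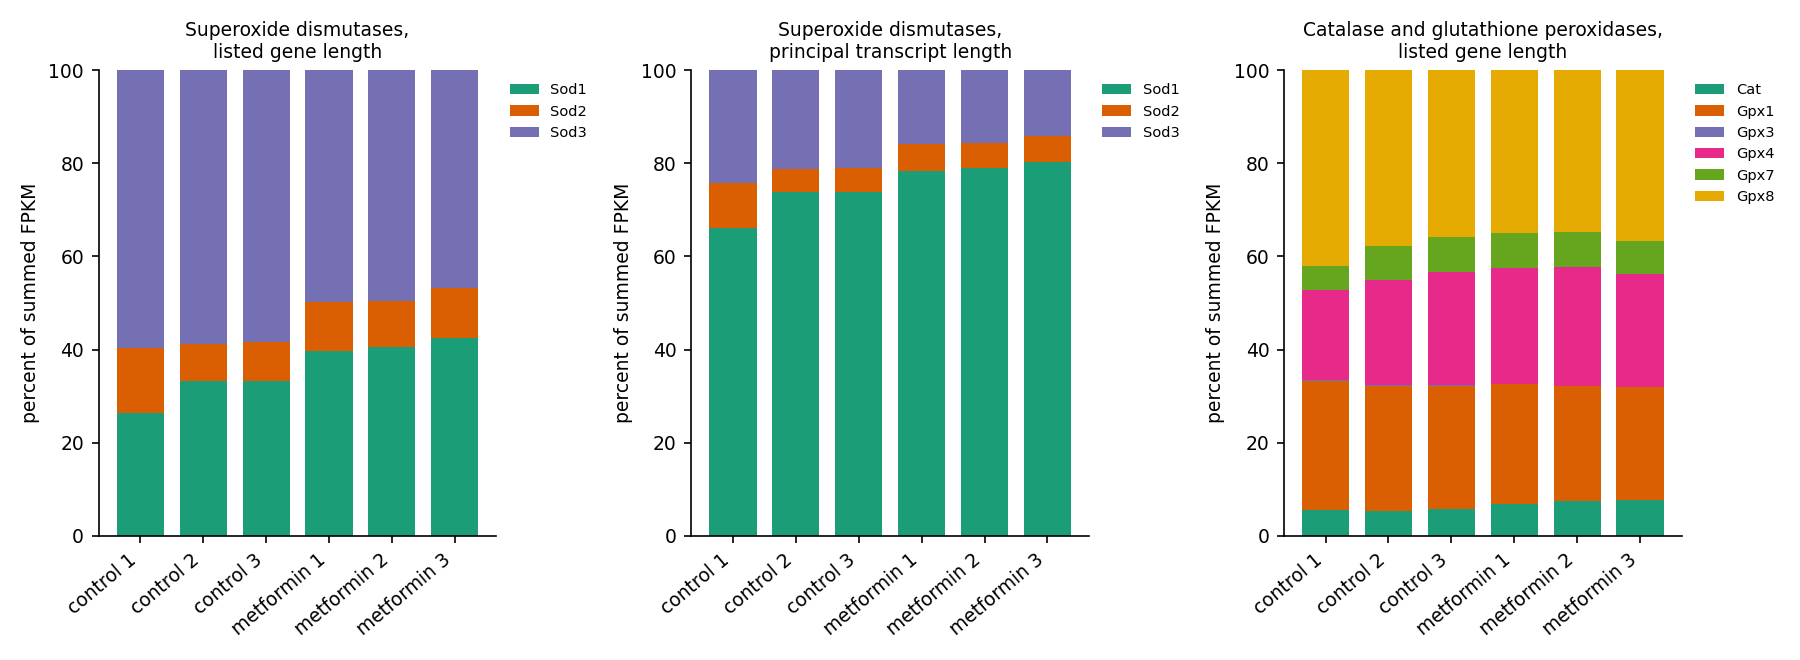
Stacked bars of the percent of summed FPKM held by each gene in each of the 6 samples, for the superoxide dismutases by listed gene length (left) and by principal transcript length (middle), and for catalase and the glutathione peroxidases (right, where Gpx3 is too small to see). Sod1 is under 43% in every sample on the left and over 66% in every sample in the middle, and by both lengths it is higher in all 3 metformin samples than in the controls.

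The surroundings of these enzymes were read from 9 lists, whose tested genes number 72, with 10 called higher and 11 lower, beside 13.2% and 9.28% of all tested genes. Without control replicate 1 these were 21 and 19, beside 23.4% and 20.4% of all tested genes. Without control replicate 2 they were 8 and 4, beside 1255 and 741 of all 12681 tested genes. Without control replicate 3 they were 11 and 8, beside 1569 and 1054. Without metformin replicate 1 they were 5 and 3, beside 938 and 495. Without metformin replicate 2 they were 5 and 4, beside 943 and 518, and without metformin replicate 3 they were 6 and 2, beside 985 and 533. The remaining glutathione peroxidase genes, Gpx2, Gpx5 and Gpx6, had 0 reads in all samples, which allows a share of up to 1.63e-05% of reads (3 reads in the shallowest sample, counting error only). The expressed glutathione peroxidases in these cells were thus detectably the 5 described above.

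Among genes of glutathione synthesis and recycling, 2 of 8 tested were higher and 0 were lower (median log2 fold change 0.16). Gclm, the regulatory subunit of the rate-limiting enzyme of glutathione synthesis, had 10.4, 9.22 and 8.60 FPKM in control and 17.7, 18.1 and 16.8 FPKM with metformin, all above the controls. The difference was 0.84 on the log2 scale, with a standard error of 0.093 (adjusted p = 0.00133). Chac1 breaks glutathione down rather than making it, and rose from 8.92 ± 3.24 to 27.5 ± 1.62 FPKM (log2 fold change 1.58, adjusted p = 0.00600). Both calls held in all 6 fits that left out 1 sample. The catalytic subunit Gclc had a log2 fold change of 0.11 (adjusted p = 0.471) and glutathione reductase, Gsr, one of 0.22 (adjusted p = 0.126).

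Of 10 tested genes of selenium supply and selenocysteine insertion, 2 were higher and 2 lower (median -0.11). Selenop, the secreted selenium carrier, had 89.9, 69.3 and 64.4 FPKM in control and 26.6, 28.0 and 26.3 FPKM with metformin, all below the controls. The difference was -1.42 on the log2 scale, with a standard error of 0.13 (adjusted p = 0.000677). Lrp8, which takes up that carrier, went the other way, from 0.923 ± 0.085 to 2.82 ± 0.014 FPKM (0.99, adjusted p = 0.000431). Both calls held in all 6 fits that left out 1 sample. Sephs1 was higher (0.53, adjusted p = 0.0260) and Pstk, the kinase that acts on the seryl form of the selenocysteine tRNA, was lower (-0.37, adjusted p = 0.0495), each called in 2 of those 6 fits. Sephs2, which makes the selenium donor, had -0.26 (adjusted p = 0.137), and the insertion factors Secisbp2 and Eefsec had -0.19 and 0.082 and were not called.

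Of the other selenoproteins, 13 were tested, 4 were higher and 4 lower (median -0.091). The higher ones were led by Selenoh (1.25, adjusted p = 0.00229), the cytosolic thioredoxin reductase Txnrd1 (0.66, adjusted p = 0.00146) and the methionine sulfoxide reductase Msrb1 (0.60, adjusted p = 0.0156). The lower ones were led by Selenom (-0.64, adjusted p = 0.0252), Selenok (-0.48, adjusted p = 0.00903) and Selenoo (-0.47, adjusted p = 0.0141). Txnrd1 and Selenoh were called in all 6 fits that left out 1 sample, Selenok in 4, Msrb1 and Selenoo in 3 and Selenom in 1. Of the 3 selenocysteine peroxidases, which need the same machinery, Gpx1 and Gpx4 lay between these groups at -0.11 and 0.18. Gpx3, called lower at -0.69, lay below Selenom.

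Of 7 tested genes that carry copper, zinc and manganese, 0 were higher and 2 lower (median -0.24). Slc39a14, an importer of zinc and manganese, had a log2 fold change of -0.50 (adjusted p = 0.00813) and was called in 4 of the 6 fits that left out 1 sample. Slc11a2, a transporter of divalent metals, had one of -0.30 (adjusted p = 0.0330) and was called in 1. The copper chaperone of Sod1, Ccs, had 22.7, 46.9 and 42.6 FPKM in control and 29.0, 27.5 and 26.9 FPKM with metformin, again with control replicate 1 far below the other controls. Its log2 fold change was -0.35 (adjusted p = 0.376) with all samples and -0.67 (adjusted p = 0.000516) without that sample.

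Of 8 tested sources of superoxide or hydrogen peroxide, 0 were higher and 1 lower (median 0.11). Xdh, xanthine dehydrogenase of purine breakdown, had 60.2, 58.8 and 69.1 FPKM in control and 36.6, 37.6 and 37.5 FPKM with metformin, all below the controls. The difference of -0.73 on the log2 scale had a standard error of 0.092 (adjusted p = 0.00225) and was called in all 6 fits that left out 1 sample. Nox4, an NADPH oxidase, went from 1.37 ± 0.37 to 1.58 ± 0.22 FPKM and was not called (adjusted p = 0.541). Nox1, Nox3 and Cybb were under the FPKM limit.

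Around catalase, 13 genes of peroxisome import and assembly were tested, of which 1 was higher and 2 lower (median -0.15). Pex19, a carrier of peroxisomal membrane proteins, was higher (0.40, adjusted p = 0.00924, called in 3 of the 6 fits that left out 1 sample). Pex26 was lower (-0.48, adjusted p = 0.0362, called in 1 of those fits). Pex5, the receptor that brings catalase in, had -0.13 (adjusted p = 0.534).

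Around Gpx7 and Gpx8, 6 disulfide-forming genes and chaperones of the endoplasmic reticulum were tested, of which 1 was higher and 0 lower (median 0.27). Txndc5 rose from 51.8 ± 5.04 to 76.9 ± 3.13 FPKM (0.56, adjusted p = 0.00870, called in 4 of the 6 fits that left out 1 sample). The metformin samples lay above all controls for 5 of the 6 genes, against 23.6% of all tested genes, and Hspa5 overlapped. Without control replicate 1, 4 of the 6 were called higher, beside 23.4% of all tested genes in that fit.

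Of 7 tested genes of lipid peroxidation and ferroptosis, the process that Gpx4 holds back, limma-trend called 0 in either direction and voom called 0, and 1 had an unadjusted p under 0.05 (median 0.28). The ferritin chains Fth1 and Ftl1 had log2 fold changes of 0.28 (adjusted p = 0.144) and 0.29 (adjusted p = 0.237), and Acsl4, which loads polyunsaturated fatty acids into lipids, had 0.42 (adjusted p = 0.0948). Without control replicate 1, 2 of the 7 were called, both higher, which is near the 23.4% of all tested genes called higher in that fit.

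**Figure D4:**
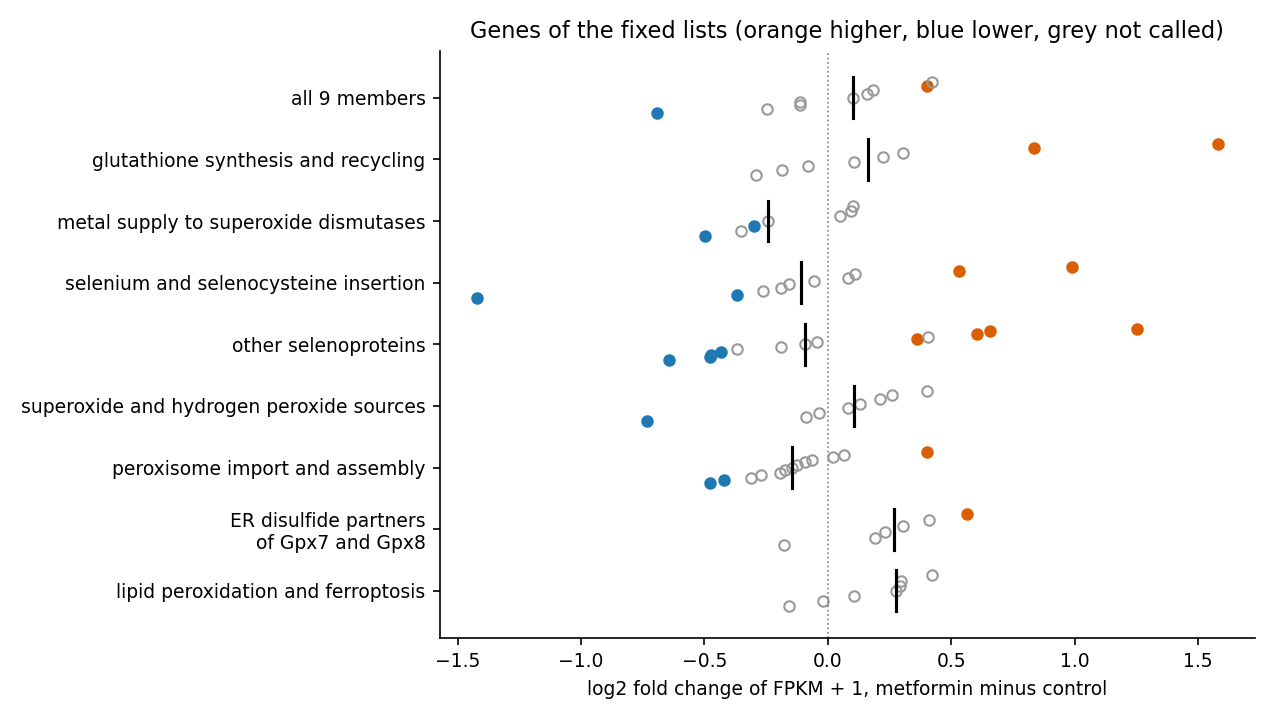
Log2 fold change (metformin minus control) of FPKM + 1 for each tested gene of the 9 enzymes and of the 8 lists with tested genes, 1 point per gene, orange where called higher, blue where called lower and open grey where not called, with the median of each list as a black bar. The medians lie between -0.24 and 0.28, and calls in both directions occur among the 9 enzymes, the selenium genes, the other selenoproteins and the peroxisome genes.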

How the data were processed

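MC3T3-E1 cells were sequenced from TruSeq RNA libraries, 3 control and 3 metformin samples. The authors deposited 1 table of FPKM, with a gene length in bases whose definition is not given in the sources used here. It names no unit. FPKM times that length were whole multiples (within 0.001) of 1 step per sample for 100% of values above 0, which gave the reads. Columns of samples outside these 6 numbered 0. The submitters' processing notes name Bowtie 0.12.2 and the builds mm8 and mm9 without a role, whereas 53499 of 54532 genes, all 9 enzymes among them, have the coordinates of GENCODE M21 (GRCm38). The counter, strand setting and annotation are not given in the sources used here.

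Limma 3.58.1 in R 4.3.3 was fitted without a block to log2(FPKM + 1). It was also run on simulated data. These held no library that stands apart and no change as small as that of Cat, so they check neither. The members, lists and alternatives were chosen with earlier results of these data known. Genes named are the 9 members and, per list, called genes (at most 3 each way). A few uncalled list genes of known role (Gclc, Gsr, Sephs2, Secisbp2, Eefsec, Ccs, Nox4, Nox1, Nox3, Cybb, Pex5, Hspa5, Fth1, Ftl1, Acsl4) were named after their values were seen. The values of 1 called list gene are not reported here. Near-identical transcripts had at least 95% identity over 200 bases (BLAST+ 2.17.0). Alternatives were a pseudocount of 0.1, total-read scaling, no filter, a minimum of 10 reads per sample, the replicate block, voom, a GC correction (spline with 5 degrees of freedom per library), both together, leaving out each sample, and, chosen after the values were seen, principal transcript lengths. Figures used matplotlib 3.10.9.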

Additional observations from a re-analysis of the deposited data

How the results depend on the processing

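Of 125 recomputed fold changes of the 9 enzymes, 118 kept their direction and side of the threshold. The call of Cat was lost with the replicate block (log2 fold change 0.40, adjusted p = 0.0880). Leaving out 1 sample, the log2 fold change of Cat ranged from 0.35 to 0.45, that of Sod3 from -0.45 to -0.074 and that of Gpx8 from -0.25 to 0.0047, the last a change of sign without control replicate 1. Same-numbered samples had correlations of deviations across genes of -0.053, 0.00027 and -0.055, which show no pairing by number. With 3 samples a group and control replicate 1 standing apart, these correlations do not decide it. Under a minimum of 10 reads per sample Gpx3 was not tested.

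Members called higher were 1, and 0 with the replicate block or when a log2 fold change beyond 1 either way was required (the limit of 1). Leaving out 1 sample they ranged from 0 to 1. Members called lower were 1, and 0 under that minimum or the limit of 1. Leaving out 1 sample they ranged from 1 to 2.

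Of all tested genes 1670 were higher and 1177 lower. With the limit of 1 they were 468 and 168. Lower genes were 698 with the replicate block, where higher genes were 1161, 2433 with the GC correction (higher 2062) and 1888 with both (higher 1703). The GC correction moved the median log2 fold change by -0.054, and it turned the share of higher calls. Leaving out 1 sample, there were 938 to 2969 higher and 495 to 2590 lower genes, both highest without control replicate 1. The cause was not tested.

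Called genes per list, leaving out 1 sample, ranged from 2 to 4 for glutathione, 0 to 5 for metal supply, 2 to 4 for selenium, 2 to 11 for other selenoproteins, 1 to 3 for peroxide sources, 0 to 7 for peroxisomes, 0 to 4 for endoplasmic reticulum partners and 0 to 2 for lipid peroxidation. With no filter they were 4 for glutathione, 2 for selenium, 2 for sources and 1 for peroxisomes. Under the minimum of 10 reads they were 4 for glutathione and 2 for sources. With the replicate block they were 1 for metal supply, 4 for other selenoproteins and 0 for peroxisomes. With the GC correction they were 2 for sources, 5 for peroxisomes, 3 for endoplasmic reticulum partners and 2 for lipid peroxidation, and with both corrections 2, 5 and 2 for the first, second and last of these. With the limit of 1 they were 1 for glutathione, selenium and other selenoproteins and 0 for the rest that had calls.

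By principal transcript length, chosen after the values were seen, mean shares in control and with metformin were 71.3% and 79.2% for Sod1, 6.61% and 5.58% for Sod2, 22.1% and 15.2% for Sod3, 4.34% and 5.71% for Cat, 28.5% and 25.9% for Gpx1, 31.2% and 34.8% for Gpx4, 5.24% and 5.73% for Gpx7 and 30.5% and 27.7% for Gpx8. By this length the mean shares of Gpx3 moved by less than 1 SD and those of the other enzymes by more. Mean shares were also recomputed without 1 sample. Leaving out 1 of 3 samples cannot move a mean by 1 SD, so that comparison decides nothing.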

Other observations

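The antioxidant response element is the site to which Nrf2 binds. Its core, searched as TGACNNNGC on both strands, was looked for in RefSeq promoter windows (GRCm38.p6) from 250 bases before to 50 bases after the start site, which were matched for 8 of the 9 enzymes, all but Sod3. Of the 8 genes, Sod1 alone had a match, from 56 to 48 bases before its start on the minus strand. By windows, 1 of the 11 of these genes held one (9.09%), beside 12.4% of all 32851. The match is a description of these letters, and other parts of the genes were not searched.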
